A study of Saccharomyces cerevisiae with 13 samples.

Results

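Some 1169 of the 6326 genes listed in the files had rows that ended within 600 bp of the point to which the rows were aligned, and these short genes are described here. A gene was taken as short where the last filled bin lay no more than 600 bp after that zero point, in bins of 20 bp, and genes on chromosome 12 were left out (547 genes, 122 of them short) because replicate 2 is listed at 0 across it. No measured signal entered the choice. Another 4610 genes ended after 600 bp and served as the comparison. Of the 1169 members, 1155 had a value and 14 had none. A total of 53 members ended at exactly 600 bp, just inside the limit, and 34 genes ended at 620 bp, just outside it.

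Chromatin was followed behind replication forks in budding yeast by NChAP, in which new DNA is labelled with the thymidine analogue EdU, digested with micrococcal nuclease to leave nucleosomal fragments, and pulled down through biotin. Asynchronous cells of a W303-derived strain carrying the human transporter hENT1 and a thymidine kinase, with RTT109 deleted, were given a 5 min pulse of EdU and then thymidine for as long, and aliquots of the culture were taken at set times after thymidine. There were 12 nascent libraries (0, 2, 4, 6, 8 and 15 min in replicate 1, and 2, 4, 6, 8, 15 and 25 min in replicate 2) and 1 bulk library of total chromatin from the same strain. The source label also names a chd1 deletion and the titles call the libraries input, whereas the descriptions call them nascent. Signal over the RTT109 body, on chromosome 12, was 0.0249 to 0.107 of the library mean in replicate 1 and bulk, while CHD1 signal reached 1.2 and was 1.08 in bulk. Signal was thus close to absent at RTT109 and at the usual level at CHD1, and replicate 2 could not be checked at RTT109 because it is listed at 0 on that chromosome. All groups, bulk included, carried the deletion, and there was no library from cells with RTT109. A nascent library also averages over forks that passed each gene at different moments of the pulse. Depth, read from the step between neighbouring values, was 2.57 reads per bin at 0 min and 4.94 at 4 min of replicate 1, and 20.4 to 78.1 in the other nascent libraries, with 58.6 in bulk.

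Rtt109 acetylates new histone H3 ahead of its deposition on replicated DNA, and Chd1 spaces nucleosomes over gene bodies. In yeast a typical gene begins with a nucleosome-depleted region (NDR) followed by the +1 nucleosome, which covers or borders the start site, and by a regular array that starts from it. A short gene has room for only a few nucleosomes, so its promoter and its 3' end lie within a few nucleosomes of each other. Many of the proteins made from such genes are small subunits of large assemblies: ribosomes, the respiratory chain, RNA polymerases and the DASH ring of the kinetochore.

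The length of a row did not mean the same for every member. Against the gene lengths of RefSeq (build R64), 239 short genes had rows more than 40 bp longer than the coding sequence, which is what a mapped transcript would give (transcript-length rows). A further 369 had rows within 40 bp of the coding length (coding-length rows), 548 had a name with no locus tag in RefSeq, and 13 were shorter than their coding sequence. In the other genes the same classes held 3977, 549, 22 and 62. Short rows were therefore mostly rows without transcript ends, or names without a locus tag in that table. The median row was 360 bp against 1540 bp in other genes, and the shortest was 40 bp. In all, 360 members were 300 bp or shorter, 406 ended between 300 and 400 bp, 198 between 400 and 500 bp and 205 between 500 and 600 bp. RNA polymerase II occupancy, an annotation column, was given for 94.6% of transcript-length, 55% of coding-length and 0.912% of untagged short genes, and for 98.6% of other genes. Of the coactivator classes in the files, 571 short genes were listed as dominated by TFIID, 64 by SAGA and 20 by both, and 514 had no class (44%, against 4.49% of other genes).

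Many short rows lay on DNA that belonged to another gene in the files' own coordinates. Of 1166 members with usable coordinates, 419 (35.9%) had at least 50% of their length inside another gene, against 87 of 4609 other genes (1.89%). The share was 65% for untagged short genes (355 of 546, of which 308 lay on the opposite strand), 13.9% for coding-length rows (51 of 368) and 4.60% for transcript-length rows (11 of 239). At least 100 bp of the 200 bp before the zero point lay in another gene for 45.1% of short genes, again in the order untagged (72%), coding-length (28.5%) and transcript-length (10.5%), with 11.5% of other genes. Signal at such a row is signal of both genes, and reads cannot be assigned to either.

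Promoter sequences are shown for 3 short genes whose promoter values are given below. The windows are set by the start codon and the promoter signal by the zero point of the row. The printed bases therefore need not be the 160 bp over which promoter signal was averaged. HUG1 has a coding-length row, so its zero point may lie near the start codon. Much of its printed window may then fall outside those 160 bp. Each is 200 bases of the RefSeq R64 genome on the gene's strand, read 5' to 3' and ending 100 bases short of the start codon. Capitals mark TATAAA (the TATA box core), AGGGG (the stress response element) or AAAAAAA (an A run), each on either strand. RPL41A encodes a ribosomal protein of the large subunit, and its window lies at chr4:130585-130784 on the minus strand. HUG1 encodes an inhibitor of ribonucleotide reductase that is induced by replication stress, with its window at chr13:158460-158659 on the plus strand. HSP12 encodes a small membrane-associated heat shock protein, with its window at chr6:106956-107155 on the plus strand.
RPL41A promoter: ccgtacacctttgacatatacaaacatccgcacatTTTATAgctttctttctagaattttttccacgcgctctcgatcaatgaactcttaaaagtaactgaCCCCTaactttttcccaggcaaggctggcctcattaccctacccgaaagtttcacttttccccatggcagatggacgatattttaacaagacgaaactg
HUG1 promoter: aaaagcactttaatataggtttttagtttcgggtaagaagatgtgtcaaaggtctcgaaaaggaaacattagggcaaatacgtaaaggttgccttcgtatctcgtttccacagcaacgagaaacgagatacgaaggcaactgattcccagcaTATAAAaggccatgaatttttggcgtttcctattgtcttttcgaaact
HSP12 promoter: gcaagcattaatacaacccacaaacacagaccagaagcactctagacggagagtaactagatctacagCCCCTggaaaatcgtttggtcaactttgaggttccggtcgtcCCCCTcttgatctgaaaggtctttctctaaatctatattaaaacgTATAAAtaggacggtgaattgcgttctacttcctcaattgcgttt
A TATAAA match was present in each of the 3, HSP12 held 2 AGGGG matches and RPL41A held 1, and none of them held an A run. For scale, the whole RPL41A coding sequence is 78 bases (chr4:130407-130484, minus strand, start and stop codons in capitals), less than the DNA on a single nucleosome.
RPL41A coding sequence: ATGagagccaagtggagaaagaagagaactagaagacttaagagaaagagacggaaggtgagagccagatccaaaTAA
Over all genes with a locus tag, windows of this length held AAAAAAA in 41.5%, TATAAA in 33.5% and AGGGG in 16.5%. The shares in short genes with transcript-length rows were 38.5%, 34.7% and 20.9%, and in those with coding-length rows 30.4%, 30.7% and 16.6%. Median GC was 36.5% and 37.5% in these classes and 36% over all genes. A match of letters is a description and was not tied to any factor.

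The average chromatin profile of short genes was shallow, and this came with the class of row. Values are relative to the library mean. NDR depth is the lowest bin from -200 to 0 bp over the mean from -500 to 300 bp, so that a low value means an open promoter. Over all short genes it was 0.806 ± 0.0105 (SD, n = 11 nascent libraries to 15 min; bulk 0.795), against 0.448 in other genes (bulk 0.431). The +1 height, the highest bin from 0 to 130 bp over the same mean, was 1.08 ± 0.0162 (bulk 1.12) against 1.34 (bulk 1.46). In all 12 nascent libraries the NDR depth of short genes was higher, on average by 0.339 (p = 0.000488 in an exact two-sided permutation test that flips the sign of each library's difference, 0.000651 after adjustment over the 4 measures). The +1 height was lower in all 12, by -0.258 (exact p = 0.000488). The contrast of the +1 and +2 peaks with the trough between them was also lower in all 12, by -0.163 (exact p = 0.000488). Libraries of a replicate were aliquots of 1 culture, so these p-values measure the spread between libraries and not between 12 cultures.

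Short genes with transcript-length rows had an open promoter. Their NDR depth was 0.419 ± 0.0210 in nascent chromatin and 0.413 in bulk, against 0.407 and 0.398 in other transcript-length genes. The difference over the 12 nascent libraries was 0.00745 (9 of 12 higher in short genes, exact p = 0.210), and without the 25 min library it was 0.0121 (9 of 11, exact p = 0.00684). Against transcript-length genes of 600 to 1000 bp alone, the NDR of short genes was less open by 0.0475 (11 of 12, exact p = 0.000977). The +1 nucleosome of these genes peaked at 50 bp after the zero point in 11 of the 12 nascent libraries and in bulk, and at 70 bp in the shallow 0 min library. Its height was lower than in other transcript-length genes by -0.0277 (2 of 12 higher, exact p = 0.0308), and by -0.0223 without the 25 min library (exact p = 0.0615). With medians over genes in place of means the +1 height was lower by -0.0597 (0 of 12 higher, exact p = 0.000488). Length within the class did not order the NDR, which was 0.391 for 300 to 400 bp (n = 33), 0.407 for 400 to 500 bp (n = 64) and 0.391 for 500 to 600 bp (n = 135), each within 1 SD of the others. Over all short genes, where the classes mix, it went from 0.911 for rows up to 300 bp through 0.891 and 0.706 to 0.522 for 500 to 600 bp.

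The other classes showed a shallow trough before the zero point, or none. Coding-length short genes had an NDR depth of 0.842 (bulk 0.809) and a +1 height of 1.06 (bulk 1.08). A row of coding length may start near the start codon rather than at the start of the transcript. In bulk the +1 bin lay at 10 bp in these members, against 50 bp in transcript-length ones. The windows may thus be offset from the promoter, and these values cannot show how open it was. Set against coding-length rows of other genes, the NDR depth of the short ones was higher by 0.176 and their +1 height lower by -0.181 (12 of 12 libraries each, exact p = 0.000488). Untagged short genes had 0.953 (bulk 0.952) and 1.00 (bulk 1.01), so that neither a trough nor a peak stood out of the surrounding signal. Where the 200 bp before the zero point lay wholly inside another gene, the NDR depth was 0.955 ± 0.0179 (352 members, bulk 0.942). Where they lay outside all other genes it was 0.707 ± 0.0139 (460 members, bulk 0.690). The inside value was higher in 11 of 11 libraries (exact p = 0.000977, adjusted p = 0.00146 over 12 comparisons). Within classes the gap was smaller: 0.844 against 0.776 in coding-length rows (10 of 11 libraries, exact p = 0.00195) and 0.971 against 0.869 in untagged genes (11 of 11, exact p = 0.000977). Even outside other genes the classes remained apart, with 0.444 in 137 transcript-length members.

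**Figure D1:**
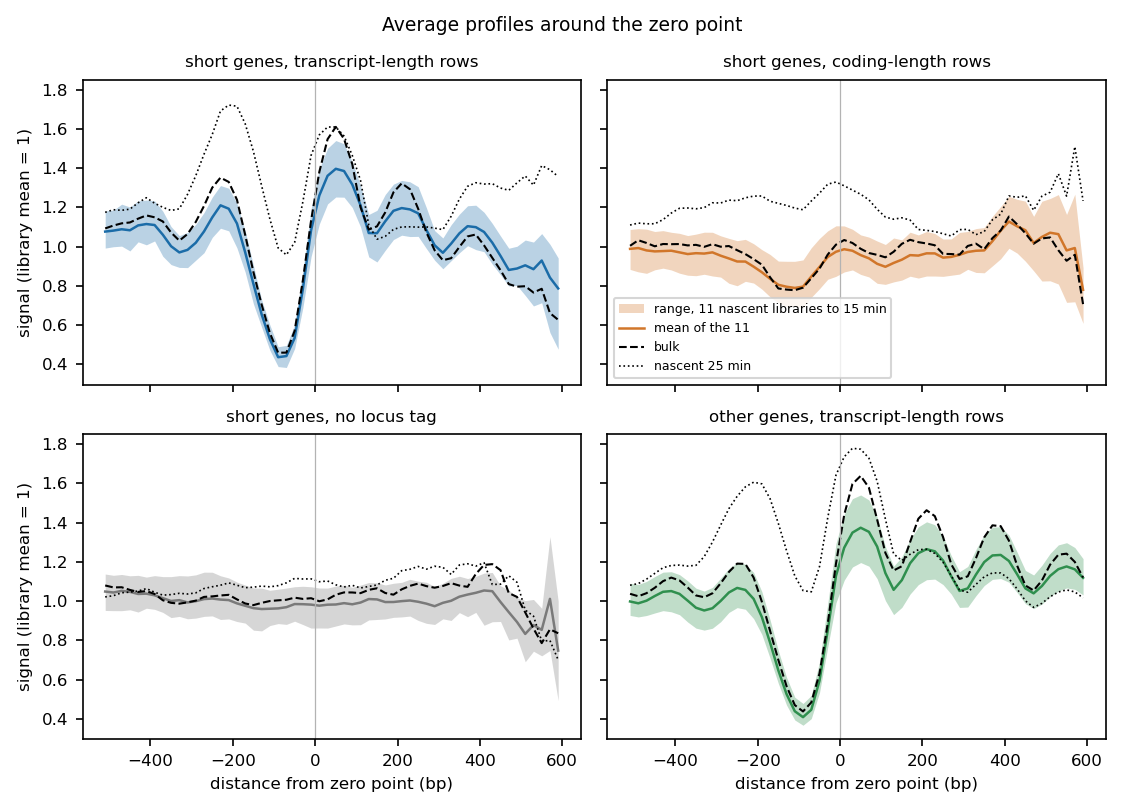
Mean signal (library mean = 1) against distance from the zero point in bp, for short genes with transcript-length rows, coding-length rows and no locus tag, and for other genes with transcript-length rows. Coloured lines are the mean and shading the range of the 11 nascent libraries to 15 min, the dashed line is bulk and the dotted line the 25 min library. The trough before 0 bp is deep in the blue and green panels (NDR depth 0.419 and 0.407), shallow in the orange one (0.842) and missing in the grey one (0.953). Beyond about 400 bp fewer short genes contribute to each bin.

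Nascent and bulk chromatin differed in the height of the nucleosome peaks, by most where short genes had transcript-length rows. In transcript-length members the +1 height was 1.34 ± 0.0218 in nascent libraries and 1.45 in bulk, and none of the 11 nascent libraries reached the bulk value. The contrast of +1 and +2 was 1.22 ± 0.0352 against 1.35 in bulk, again with 0 of 11 above it. The NDR depth of these genes was above bulk in 6 of the 11 libraries. It was above bulk in 10 of 11 over all short genes and in coding-length members, and in 9 of 11 in untagged members. The +1 height and the contrast of coding-length members were above bulk in 3 and 4 of 11. In untagged members each was above bulk in 1 of 11, with small differences. Their +1 height was 1.00 against 1.01 in bulk and their contrast 1.02 against 1.03. Over all short genes the 2 measures were above bulk in 1 and 0 of 11. Other transcript-length genes had the same arrangement, with a +1 height of 1.36 in nascent and 1.49 in bulk chromatin. Bulk was sequenced as a single library, so its own spread was not measured. The 25 min library stood apart from the other nascent ones, with an NDR depth of 0.740 in transcript-length members and a +1 height of 1.24, and the other transcript-length genes had an NDR depth of 0.783 in it.

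The gene end of transcript-length members also differed between nascent and bulk chromatin. Gene-end signal is the mean of the last 100 bp of each gene over the mean from 0 bp to its end, for genes of 200 to 1600 bp. Other genes with longer rows have no such value. In transcript-length members it was 0.668 in bulk. In replicate 1 the libraries of 0, 2, 4, 6, 8 and 15 min gave 0.705, 0.831, 0.809, 0.789, 0.778 and 0.782 in that order. In replicate 2 those of 2, 4, 6, 8, 15 and 25 min gave 0.831, 0.792, 0.781, 0.752, 0.811 and 1.02. Every nascent library lay above bulk, the 0 min library was nearest to it and the 25 min library farthest. The mean to 15 min was 0.787 ± 0.0360 (n = 11), and each length band of the class had all 11 libraries above its bulk value. Other transcript-length genes went from 0.650 in bulk to 0.804 in nascent chromatin, and the difference between short and other genes was -0.0280 (4 of 12 libraries higher in short genes, exact p = 0.0337). Without the 25 min library it was -0.0167 (exact p = 0.0674). Over all short genes against all other genes the sign was the opposite, 0.0859 higher in short genes in 11 of 12 libraries (exact p = 0.00537, adjusted p = 0.00537), and with replicate 2 alone the exact p was 0.188. Coding-length and untagged members had gene ends near the body level in both kinds of chromatin, 1.01 in nascent and 1.00 in bulk for the former and 0.976 and 1.00 for the latter. In untagged members 0 of 11 libraries were above bulk.

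Aligned on the end of the row, the replicates ran at different levels on either side of bulk, with replicate 2 higher. In transcript-length members (n = 236) at 190 bp before the end, the libraries to 15 min lay at 1.05 to 1.12 in replicate 1 and 1.25 to 1.27 in replicate 2, and bulk at 1.18. In the last bin, 10 bp before the end, they lay at 0.694 to 0.848 and 0.875 to 0.978, and bulk at 0.705. Thus 10 of 11 were above bulk there, the exception being the shallow 0 min library. In coding-length members (n = 299) the last bin held 0.745 to 0.891 in replicate 1, all below the 0.901 of bulk, and 0.957 to 1.02 in replicate 2, all above it. Untagged members (n = 473) had 0.859 to 0.893, 0.982 to 1.04 and 0.998. The gene-end signal above is a ratio within each library and does not carry this offset in level, but body signal against bulk does.

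**Figure D2:**
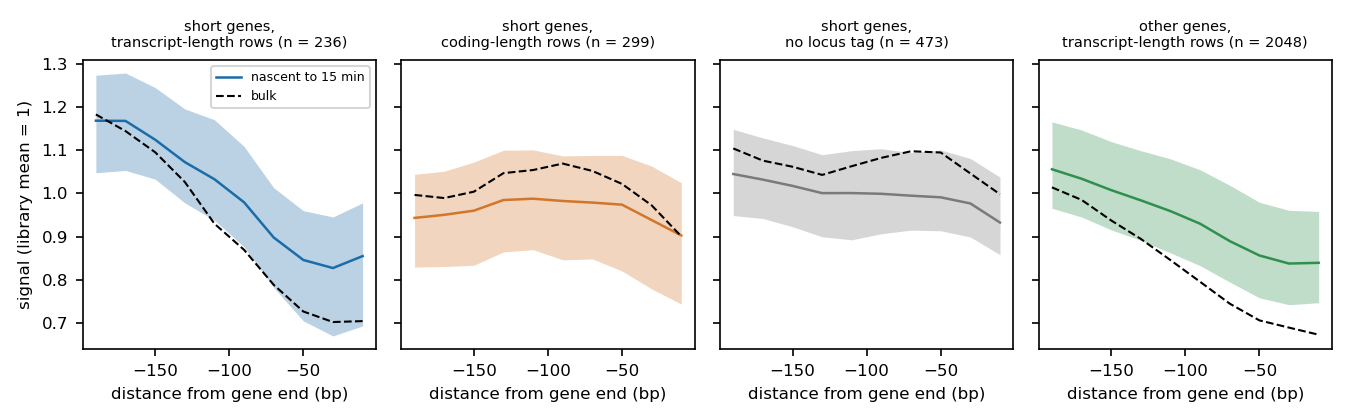
Mean signal (library mean = 1) against distance from the gene end in bp over the last 200 bp, by class of row, with the range and mean of the 11 nascent libraries to 15 min and bulk as a dashed line. The nascent mean averages 2 replicates at different levels. In transcript-length members it ends at 0.855 and bulk at 0.705, and in coding-length members the shading (0.745 to 1.02) spans the 0.901 of bulk.

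**Figure D3:**
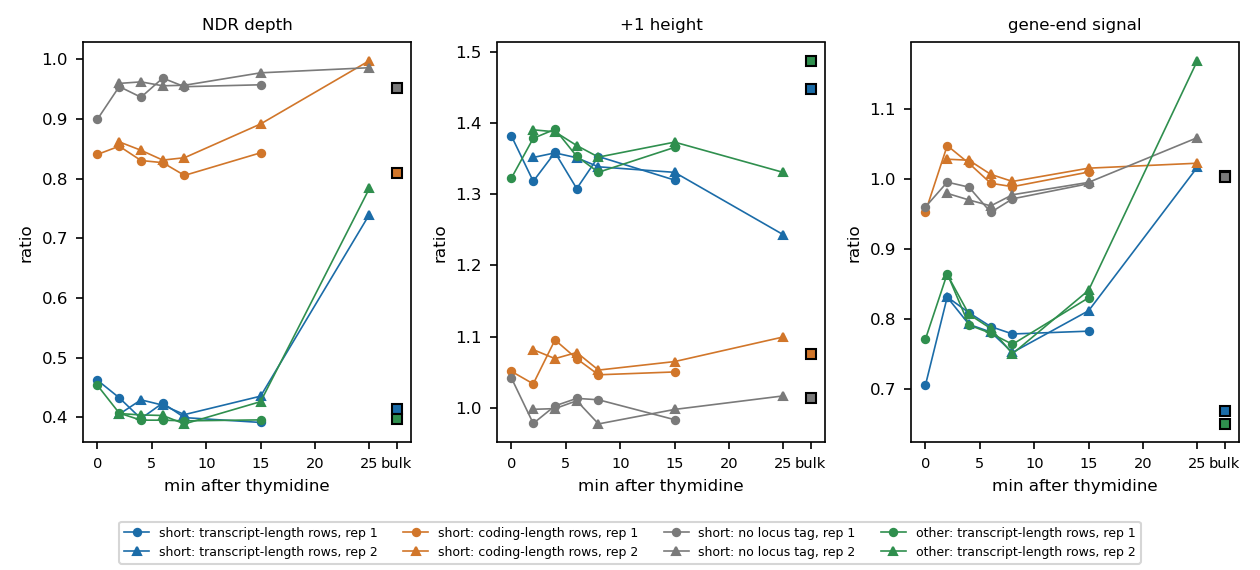
NDR depth, +1 height and gene-end signal (ratios) against min after thymidine in each nascent library, by class of row, with circles for replicate 1, triangles for replicate 2 and squares for bulk. The gene-end signal of transcript-length short genes lies between 0.705 and 0.831 up to 15 min, above the bulk square at 0.668, and reaches 1.02 at 25 min.

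Few short genes took part gene by gene in the difference between nascent and bulk chromatin. A gene was counted where all 11 libraries to 15 min lay on the same side of bulk and the mean ratio, on the log2(value + 0.1) scale, passed 1.5-fold. For gene end over body, 51 of 959 short genes were higher (5.32%, against 9.87% of all genes tested) and 17 lower (1.77%, against 1.45%). In transcript-length members 30 of 236 were higher (12.7%) and 0 lower, with a median log2 ratio of 0.21. Other transcript-length genes had 264 of 2043 higher (12.9%) and a median of 0.26. Coding-length members had 8 of 268 higher and 7 lower, with a median of -0.01. For promoter over body, 49 of 1080 short genes were higher (4.54%, against 5.76%) and 42 lower (3.89%, against 3.82%), close to the background in both directions. For body signal, 32 of 1090 were higher (2.94%, against 1.65%) and 79 lower (7.25%, against 5.77%). With a pseudocount of 1 these counts fell to between 0 and 7 in every one of these measures and directions. With replicate 2 alone 84 bodies were higher and 69 lower.

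Early and late nascent chromatin were compared between the 2 and 4 min libraries (early, n = 4) and the 8 and 15 min libraries (late, n = 4), which asks whether the profile of short genes matures after the fork. With 70 arrangements the smallest possible p is 0.0286. No measure over all short genes passed. The NDR depth was 0.806 ± 0.00613 early and 0.806 ± 0.0173 late (two-sided exact permutation test, p = 1). The +1 height was 1.08 ± 0.0142 and 1.07 ± 0.01 (exact p = 0.314), and the contrast of +1 and +2 was 1.07 ± 0.00602 and 1.06 ± 0.0104 (exact p = 0.143). Gene-end signal was 0.951 ± 0.0113 early and 0.935 ± 0.0138 late (exact p = 0.200). The root mean square distance of the profile from bulk was 0.0285 ± 0.00656 early and 0.0200 ± 0.00186 late (exact p = 0.0857). Adjusted over the 5 measures the p-values were 0.333 to 1. In transcript-length members the gene-end signal was 0.815 ± 0.0189 early and 0.781 ± 0.0244 late (exact p = 0.0857), and in coding-length members it differed by -0.0285 (exact p = 0.0286), with adjusted p-values of 0.536 and 0.429 over 15 comparisons. The depth of the 4 min library of replicate 1 was far below that of the others, and without it the exact p-values of the 5 measures were 0.0857 to 0.971.

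Gene by gene, 35 of the 1101 short genes tested changed in body signal between early and late libraries, 28 upward and 7 downward (3.18%, limma with Benjamini-Hochberg adjustment over all genes, adjusted p under 0.05; 2.08% of all 5637 genes tested were called). With the replicate number as a block 59 short genes were called, 39 upward and 20 downward (5.36%, against 3.85% of all genes), and with libraries centred on their median 56 were called, 33 upward and 23 downward (5.09%, against 3.39% of all genes). Leaving out the 2 min library of replicate 1 brought the calls over all genes to 11, and leaving out the 15 min library of replicate 2 brought it to 16. The promoter over body signal of 3 of 1091 short genes changed (0.275%, where 0.124% of all 5623 genes tested were called). The gene end over body signal changed in 1 of 963 (0.104%, where 0.0296% of all 3381 genes tested were called). At an unadjusted p under 0.05 the shares of short genes in those tests were 10.5% and 5.09%, against 8.79% and 8.1% of all genes tested. Of the 35 body calls, 6 were on chromosome 3, which held 47 of the short genes tested. The share called among all genes of that chromosome was not computed, so no excess of short genes there can be read from this. Among the 6, YCR087C-A and YCR087W share 451 bp of the same DNA.

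The largest body changes were in YCL042W, an open reading frame of unknown function on chromosome 3 with a coding-length row. Its body signal was 0.274, 0.260, 0.505 and 0.5 in the early libraries (2 and 4 min, replicate 1 first) and 1.36, 1.82, 1.44 and 1.67 in the late ones (8 and 15 min), with 0.985 and 0.808 at 6 min and 1.07 in bulk. The groups did not overlap and the 6 min values lay between them. The log2 change was 1.82 ± 0.19 (SE, limma adjusted p = 5.77e-05), and the call held in all 16 alternatives. The promoter over body signal of its neighbour YCL041C rose as well, by 2.33 ± 0.26 (limma adjusted p = 0.000308). This ratio was 0.194, 0.316, 0.299 and 0.250 early and 2.01, 3.18, 1.53 and 2.41 late, with 2.12 in bulk. All 200 bp of the YCL041C promoter lie inside the body of YCL042W on the other strand, so both calls describe the same DNA. The call for YCL041C was lost where either replicate was used alone (limma adjusted p = 0.0678 and 0.145).

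Another pair on chromosome 3 shared its DNA in the same way. YCR087C-A, a coding-length row, and YCR087W, an untagged name on the opposite strand, overlap by 451 bp. Body signal of YCR087C-A was 0.220, 0.337, 0.306 and 0.414 early and 1.12, 0.851, 1.02 and 1.29 late, with 0.397 in bulk. The log2 change was 1.49 ± 0.18 (limma adjusted p = 0.000137) and held in all 16 alternatives. For YCR087W the body rose by 1.48 ± 0.18, and its promoter over body signal fell by 1.67 on the log2 scale (limma adjusted p = 0.0333). Its promoter alone was at 1.54 ± 0.269 early and 1.4 ± 0.497 late, so the ratio moved with the body. That call held in 5 of 16 alternatives. YOR135C, an untagged name on chromosome 15, repeated the pattern with a body change of 1.45 ± 0.21 (limma adjusted p = 0.00155) and a promoter over body change of -1.44 (limma adjusted p = 0.0377, held in 4 of 16). Its promoter signal was 0.995 ± 0.404 early and 0.998 ± 0.361 late. YOL085C and YOL085W-A, both called upward, share 145 bp.

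YER119C-A, untagged, had a low early body signal of 0.0546, 0.0875, 0.0420 and 0.0375, against 0.457, 0.268, 0.153 and 0.571 late and 0.648 in bulk. The log2 change was 1.48 ± 0.23 (limma adjusted p = 0.00315). All of its 200 bp promoter lies inside another gene. Among the 7 bodies that fell, YPR195C went from 0.513 ± 0.116 early to 0.229 ± 0.122 late, by -0.96 on the log2 scale (limma adjusted p = 0.0446). YHR180W-A went from 0.501 ± 0.15 to 0.234 ± 0.0945, by -0.85 (limma adjusted p = 0.0446), and YMR230W-A from 0.967 ± 0.344 to 0.489 ± 0.144, by -0.84 (limma adjusted p = 0.048). These last 3 calls held in 4, 5 and 5 of the 16 alternatives. Most of the called bodies carried only a systematic name, and those with a gene symbol were listed after their values were seen. Upward calls were AHT1, MIM1 (mitochondrial outer membrane import), STF2 (an ATP synthase-stabilising factor), MEH1 (a subunit of the EGO complex on the vacuole), FRM2 (a nitroreductase-like protein) and PAU2 (a seripauperin). MRPL37 (mitochondrial ribosome) and MIC12 (MICOS complex of the mitochondrial inner membrane) fell. The calls with a symbol held in 3 (MIC12) to 10 (AHT1 and MIM1) of the 16 alternatives.

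**Figure D4:**
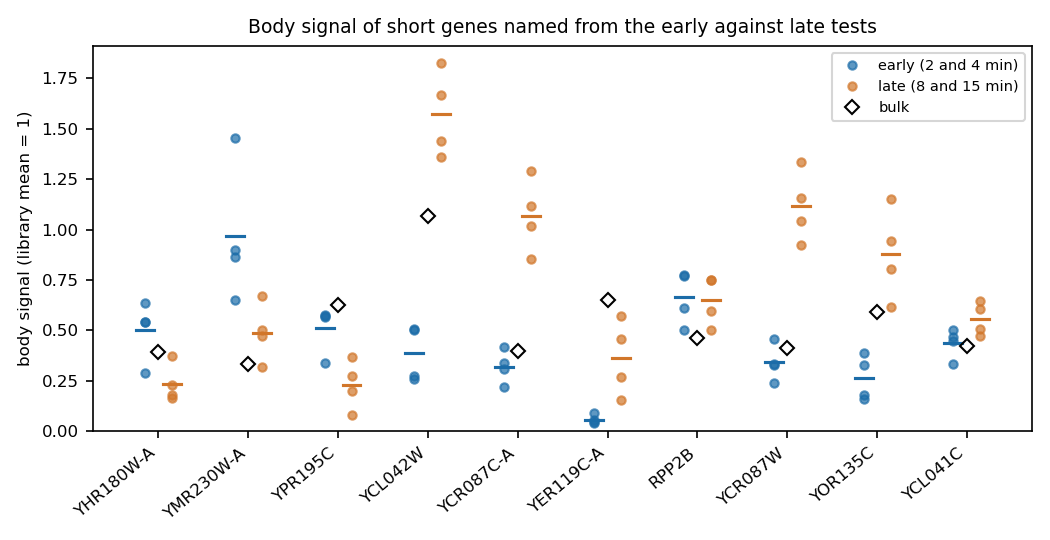
Body signal (library mean = 1) of the short genes named from the tests of early against late libraries, with a point for each of the 4 early (blue) and 4 late (orange) libraries, a bar at their mean and a diamond for bulk. Early and late points do not overlap in YCL042W (up to 0.505 against from 1.36), YCR087C-A, YCR087W, YOR135C and YER119C-A, and overlap in YPR195C, YHR180W-A, YMR230W-A, RPP2B and YCL041C.

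RPP2B, which encodes an acidic stalk protein of the large ribosomal subunit, was the single gene whose gene end changed. Its gene end over body signal was 1.19, 1.02, 1.12 and 0.967 early and 0.327, 0.188, 0.296 and 0.305 late. The 6 min libraries lay between at 0.747 and 0.440, bulk was at 0.412 and the 25 min library at 1.09. Early and late values did not overlap, the late ones were under bulk, and the body itself stayed at 0.665 ± 0.133 and 0.650 ± 0.121. The log2 change was -1.49 ± 0.19 (limma adjusted p = 0.0171). The call held in 6 of 16 alternatives (limma adjusted p from 0.0144 to 0.841) and was lost when any of the 8 and 15 min libraries, or the 2 or the 4 min library of replicate 2, was left out.

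Short genes were next described by the role of their product, in 12 lists of small proteins that together held 138 members. Ribosomal protein genes of the cytosol gave 9 members, with an NDR depth of 0.248 ± 0.0771 (SD) in nascent chromatin and 0.306 in bulk, the lowest nascent value of the lists. The lowest bin of a profile averaged over few genes is a noisy measure, so the order of lists of unlike size is uncertain. Gene-end signal of the 9 ribosomal protein genes was 0.799 in nascent chromatin and 0.665 in bulk (10 of 11 libraries above bulk). RPL41A, whose sequence is given above, had promoter over body signal of 0.0255 to 0.241 (median 0.136) in nascent libraries and 0.304 in bulk. None of the 11 reached bulk, and the mean was 1.76-fold lower on the log2(value + 0.1) scale. RPL41A has a near-identical copy, RPL41B, so reads from the coding part could belong to either. In the lists, the test of early against late called RPP2B (gene end), STF2, MRPL37 and PAU2 (body) and no other member.

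Mitochondrial proteins formed the largest block. The 16 short genes for mitochondrial ribosomal proteins had the lowest bulk NDR depth after that of Sm and Lsm genes, 0.222 with 0.296 in nascent chromatin, and a +1 height of 1.81 in bulk and 1.56 in nascent chromatin. Their gene-end signal was 0.716 in nascent chromatin and 0.545 in bulk (10 of 11 above). In the 15 genes for the respiratory chain and ATP synthase it was 0.774 and 0.589 (11 of 11), and in the 15 for import and small chaperones 0.850 and 0.736 (11 of 11). ATP19, an ATP synthase subunit, had promoter over body signal of 0.290 to 0.859 (median 0.354) against 0.637 in bulk (1 of 11 above) and gene end over body signal of 0.161 to 1.18 (median 0.601) against 0.311 (10 of 11 above). TIM9, an intermembrane space chaperone, had gene end over body signal of 0.280 to 1.14 (median 0.849) and 0.460 in bulk (10 of 11 above), but a share of 0.429 of its row lies in another gene. TOM6, a subunit of the outer membrane translocase, went the other way, with 0.803 to 1.44 (median 1.11) and 1.44 in bulk (0 of 11 above).

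RNA-binding, transcription and kinetochore genes were mixed. The 9 Sm and Lsm genes (splicing and RNA decay rings) had an NDR depth of 0.314 in nascent chromatin and 0.220 in bulk, and a gene-end signal of 0.820 and 0.843 (5 of 11 above bulk). LSM6 differed from its list, with gene end over body signal of 0.692 to 0.922 (median 0.811) in all nascent libraries and 0.403 in bulk. The 11 values did not reach down to bulk and the mean was 1.79-fold higher, and a share of 0.467 of the LSM6 row lies in another gene. The 13 genes for RNA polymerase and transcription factor subunits had 0.848 and 0.701 (10 of 11 above). RPB10, a subunit shared by all nuclear RNA polymerases, had gene end over body signal of 0.417 to 1.62 (median 1.04) and 0.844 in bulk (9 of 11 above). The 9 genes for DASH and other kinetochore or tubulin proteins had 0.694 and 0.719 (7 of 11 above), and their +1 height was 1.58 in nascent chromatin and 1.73 in bulk. DAD1, of the DASH ring, had body signal of 0.731 to 1.37 (median 0.977), below the 1.65 of bulk in every library.

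The ubiquitin family and proteasome list (9 members) had a gene-end signal of 0.799 in nascent chromatin and 0.671 in bulk (10 of 11 above). SMT3, the yeast SUMO, lay on both sides of bulk, with gene end over body signal of 0 to 1.06 (median 0.501) and 0.492 in bulk. Small stress and membrane proteins (24 members) had 0.812 and 0.710 (11 of 11 above). HSP12, shown above with 2 AGGGG matches, had promoter over body signal of 0.362 to 1.62 (median 1.05) and 0.509 in bulk (10 of 11 above, 1.90-fold higher). Its gene end over body signal was 0.269 to 0.628 (median 0.435) and 0.217 in bulk (11 of 11 above, 1.79-fold higher). Folds in this paragraph are means over the 11 libraries on the log2(value + 0.1) scale, so they differ from quotients of the printed values. HUG1 had promoter over body signal of 0.603 to 1.75 (median 0.858), above the 0.519 of bulk in 11 of 11 libraries, 1.6-fold higher, and the highest value was that of the 0 min library, the shallowest. DDR2, a stress-induced protein, had 0.139 to 1.12 (median 0.861) against 0.723 (7 of 11 above). No member of these 2 lists passed limma between early and late libraries.

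The remaining lists were small or made of repeats. Of the histone genes 3 were short, all with transcript-length rows, and their gene-end signal was 0.673 in nascent chromatin and 0.558 in bulk (10 of 11 above). HHF1 and HHF2 encode the same histone H4 protein and are close copies, so their values are uncertain. HHF2 promoter over body signal was 0.152 ± 0.107 early and 0.624 ± 0.211 late, a log2 change of 1.26 that did not pass (limma adjusted p = 0.138), and HHF1 was at 1.15 ± 0.504 and 1.01 ± 0.592. MFA1 and MFA2, the a-factor pheromone genes, are too short (120 and 160 bp) for a gene-end value. MFA1 had promoter over body signal of 0.311 to 1.11 (median 0.692) against 0.460 in bulk (10 of 11 above), and MFA2 of 0.532 to 2.26 (median 0.999) against 1.05 (5 of 11 above). The 14 seripauperins, subtelomeric cell wall genes that are near-copies of each other, all had coding-length rows, with a gene-end signal of 1.44 in nascent chromatin and 1.23 in bulk. Only 5 of the 14 met the filter for gene end against bulk gene by gene, and 6 that for body signal, so the list value rests on part of the list. PAU7 body signal was 0.222 to 1.35 (median 0.788), below the 1.41 of bulk in all 11 libraries, and rose by 0.92 on the log2 scale without passing (limma adjusted p = 0.0603). HTZ1, RPL39, RPS29B, COX9 and SML1 had longer rows (1060, 700, 860, 640 and 640 bp) and SMD3 is on chromosome 12, so they were not members.

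**Figure D5:**
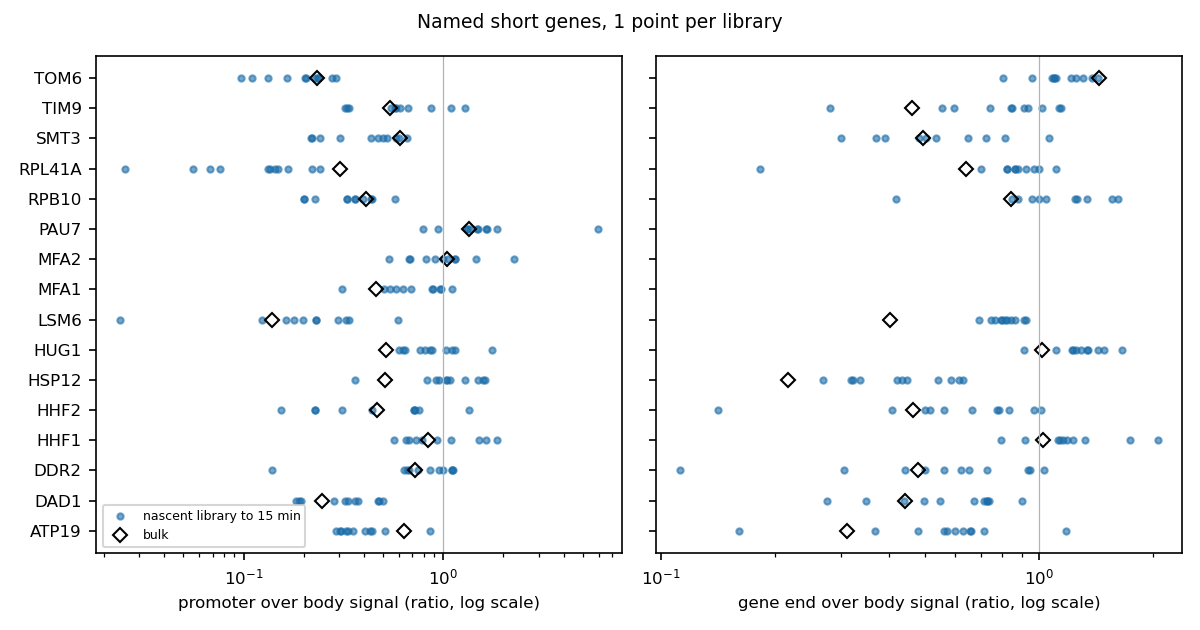
Promoter over body signal (left) and gene end over body signal (right) of 16 short genes named from the lists (ratios, log axes), with a point for each nascent library to 15 min and a diamond for bulk. Values listed at 0 (SMT3 and HHF1 at the gene end, HHF1 and HHF2 at the promoter) are not drawn, and genes under 200 bp have no gene-end value. All nascent points of LSM6 (from 0.692) and HSP12 (from 0.269) lie right of bulk at the gene end (0.403 and 0.217), and all those of RPL41A (up to 0.241) left of bulk (0.304) at the promoter.

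The 3 short genes whose bodies stood highest above bulk were on chromosome 3. Body signal of HMRA1, at the silent mating-type locus HMR, was 2.41 to 4.50 (median 3.42) in nascent libraries and 0.977 in bulk, 3.17-fold higher on the log2(value + 0.1) scale. YCR099C (1.5 to 3.94, bulk 0.668, 3.14-fold) and YCR097W-A (3.07-fold) also had all 11 libraries above bulk. All folds in this paragraph are on that scale. Their systematic names are close to that of HMRA1 (YCR097W), so the 3 need not be separate regions. All 200 bp of the YCR099C promoter lie inside another gene. HMRA1 has a copy at the MAT locus, so its reads are uncertain. Its promoter over body signal was 2.96-fold lower (0 of 11 above), in step with the body. Bodies lower than bulk in all 11 libraries were YPR159C-A (0.0524 to 0.796, bulk 1.13, 3-fold), YPL025C (0.0464 to 0.261, bulk 0.464, 2.77-fold) and UTR5 (0.0241 to 0.304, bulk 0.349, 2.49-fold). The promoter over body signal was highest against bulk in YFL015W-A (3.24-fold), YJL077W-A (3.13-fold) and BRP1 (2.79-fold), whose bodies were themselves lower than in bulk by 2.63-, 2.42- and 1.72-fold. It was lowest in YBL071C-B (3.47-fold), HMRA1 and IGO1 (2.25-fold, 0 to 0.991, median 0.670, bulk 1.48). IGO1 encodes an inhibitor of the phosphatase PP2A at entry into quiescence. Each of these values rests on rows of 80 to 540 bp, and YFL015W-A and YJL077W-A lie at least 50% inside another gene.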

How the data were processed

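Per the labels and the study's methods, nucleosomal DNA was sequenced, and the deposited signal is read coverage in bins of 20 bp around the transcription start site, which the authors scaled to the mean of each library. For rows of coding length the zero point may lie near the start codon instead. The submitters' processing notes name CASAVA 1.7.0. Aligner and genome build are not given in the sources used here. Rows of 6 names that matched no sample (37956 rows) were not used, and cells holding R or NaN (217828 and 910, 1.60% of cells) were taken as missing. Depth was read from the step between values, and precision is limited by 2 replicates.

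Both strands were averaged and bins listed at 0 were kept. Promoter is the mean from -160 to 0 bp and body the mean from 0 bp to the row end or 600 bp. In gene-end ratios the body ran to the row end, in genes of up to 1600 bp. Profile measures were compared by exact permutation tests. Genes with body signal above 0 in all 8 libraries were fitted across the genome with limma 3.58.1 (R 4.3.3) on log2(value + 0.1), with Benjamini-Hochberg adjustment at 0.05, other steps using Python 3.11.15, numpy 2.4.6, pandas 2.3.3 and scipy 1.17.1. The NDR depth, +1 height, contrast, exact tests and the limma fit (on promoter over body signal) were tested on simulated data, and the other steps were not. Replicate numbers mark aliquots of 1 culture. Deviations of replicate 1 libraries from their time-point means correlated across genes at -0.0113 to 0.0673 (6 pairs, 5681 genes). A shift in level common to all genes does not enter such a correlation, so it cannot decide whether the replicate may be left out. With the replicate as a block, body calls over all genes went from 117 to 217. Named genes are up to 3 short genes per direction with the largest called change, up to 3 per direction with the largest ratio of nascent to bulk with all 11 libraries on 1 side, and a fixed set from the lists. The members and lists were chosen with earlier results of these data known. Names and sequences come from RefSeq R64, which matched 5699 of 6326 genes.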

Additional observations from a re-analysis of the deposited data

Results flagged for a closer look

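In groups of 4 libraries, 14 of 246 sets of values held a library far from the other 3 by Dixon's test at the 95% level, and chance flags about 1 set in 20. Among the profile measures this was the NDR depth of untagged short genes, at 0.977 in the late library of 15 min, replicate 2. Among gene-end ratios it was HHF1 at 2.065 (8 min, replicate 1), HMRA1 at 0.5842 (15 min, replicate 1) and YCL042W at 1.99 (2 min, replicate 1). Among promoter over body ratios it was HHF2 at 0.3097 (15 min, replicate 1), TIM9 at 0.3359 (8 min, replicate 1), YBL071C-B at 1.969 and YER119C-A at 11.17 (8 min, replicate 2), HSP12 at 0.8304 (2 min, replicate 1), and PAU7 at 5.957 and YCR097W-A at 0.09795 (4 min, replicate 1, a shallow library). Among body signals it was PAU7 at 0.7147 (8 min, replicate 2), YPL025C at 0.2038 (15 min, replicate 2) and YPR195C at 0.3386 (2 min, replicate 2).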

How the results depend on the processing

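Short rows hold few bins and bulk is 1 library, so differences below the spread between libraries were not detectable at this depth. Between early and late libraries no profile measure of all short genes passed, and several changed sign: the NDR difference with medians over genes (-0.00704), without bins at 0 (-0.00132), in tagged genes (-0.00712), up to 400 bp (-0.00305), as the mean from -160 to 0 bp (-0.00270), in transcript-length (-0.00854) and in coding-length rows (-0.00463), the +1 height with medians (0.0156), the contrast with medians (0.0128) and up to 400 bp (0.00446), and the gene end in untagged genes (0.00107). The gene end of coding-length rows (-0.0285) and the distance in tagged genes (-0.0105) passed unadjusted. Leaving out a library or replicate gave -0.0123 to 0.0130 for NDR depth, -0.0253 to 0.0110 for +1 height, -0.0154 to -0.00822 for the contrast, -0.0241 to -0.00709 for the gene end and -0.0148 to -0.00219 for the distance. Short minus other genes in transcript-length rows gave 0.00745 for NDR depth (0.0146 with medians, 0.0475 against genes of 600 to 1000 bp), -0.0277 for +1 height (-0.0223 without 25 min, -0.0597 with medians) and -0.0166 for the contrast (-0.0307 with medians and -0.0282 against genes of 600 to 1000 bp, exact p = 0.0127 and 0.0259, and -0.0103 in coding-length rows). There the gene end was -0.0280, -0.0167 without 25 min, -0.0269 against genes of 600 to 1000 bp and -0.0199 with medians, and 0.0304 in coding-length rows. Over all rows, with 1 replicate alone, the differences were 0.323 to 0.355 (NDR), -0.261 to -0.254 (+1), -0.166 to -0.160 (contrast) and 0.0643 to 0.108 (gene end).

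Counts of genes called by limma depended on the settings. Promoter over body went from 7 to 4 with a pseudocount of 0.01, 1 without the filter, 11 for 2 against 15 min and 0 to 13 with a library or replicate left out. Gene end over body went from 1 to 0 with a pseudocount of 1 or for 2 against 15 min (271 and 260 genes at an unadjusted p under 0.05), 2 with 0.01, and 0 to 3 with libraries left out. Body calls were 197 with a pseudocount of 1, 52 with 0.01, 4 without the filter, 191 with centred libraries, 217 with the replicate block, and 11 to 125 with libraries left out. The block gave 5 and 1 calls in the other tests. Of the named genes no change turned direction. Short genes past 1.5-fold against bulk, in settings chosen after seeing the data, went with a pseudocount of 1 from 49 to 4 (promoter higher), 42 to 7 (lower), 51 to 0 (gene end higher), 17 to 0 (lower), 32 to 7 (body higher) and 79 to 5 (lower). Without a replicate or the 0 min library they were 59 to 99, 50 to 64, 58 to 71, 21 to 30, 27 to 84 and 69 to 129. The cause of these changes was not tested.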
